A study of Mus musculus with 18 samples.

Results

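The transcripts of 7 genes of the cholesterol pathway were followed in the mouse kidney: Srebf2, Insig1, Hmgcs1, Idi1, Fdft1, Sqle and Lss. They were taken by gene name from a table of 32675 genes, each name matched 1 gene, and all 7 were expressed well enough to be tested. The set holds 2 genes of the control of the pathway and 5 enzymes of synthesis, and none of its members is an uptake gene. A list of uptake and trafficking genes is therefore given beside them.

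Right kidneys of 18 male wild type C57BL/6 mice, labelled as 6-week animals, gave the RNA that was sequenced, 6 mice to a group. Mice of the Ctrl group were not defeated. Those of the PBS group underwent chronic social defeat stress (CSDS), 10 min a day with an aggressive CD-1 mouse on 14 days. They were injected intraperitoneally once a day with phosphate-buffered saline. The FLX group underwent the same defeats and was injected likewise with the antidepressant fluoxetine at 10 mg per kg a day. No group received fluoxetine without stress. The study describes daily handling and no injection for Ctrl mice. Defeat and injection therefore cannot be told apart in comparisons with Ctrl. Ctrl, PBS and FLX are labelled Ctrl, StressPbs and StressFlx.

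A cell makes cholesterol from acetyl-CoA through mevalonate, isoprenoid units, squalene and lanosterol. The transcription factor SREBP-2, encoded by Srebf2, switches on the enzyme genes when sterols in the endoplasmic reticulum are low. Its escort SCAP carries it to the Golgi for cleavage, and INSIG proteins hold the pair back when sterols are plentiful. Kidney tubule cells both make cholesterol and take it up. The activity of SREBP-2 is set largely by its cleavage, which an RNA level does not measure. Whole kidney tissue was sequenced, so that fewer cells of a type and less RNA per cell cannot be told apart.

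The stretches of genome before the start sites were searched for motifs through which genes of this pathway are known to be controlled. RefSeq promoter sequences of the build of the data, GRCm38, were matched for 5 of the 7 genes, namely Srebf2, Insig1, Hmgcs1, Idi1 and Lss. Those of 3 genes are printed 5′ to 3′ on the plus strand, each ending before the first exon annotated for its gene. They were chosen as the factor gene and the 2 members in which an SREBP motif or an E-box was found. Capitals mark the SREBP motif TCACNCCAC, the E-box CACGTG and the CCAAT box CCAAT, which on the other strand reads ATTGG. The Hmgcs1 window is chr13:119690101-119690350, that of Insig1 is chr5:28071162-28071362 and that of Srebf2 is chr15:82147019-82147180.
Hmgcs1: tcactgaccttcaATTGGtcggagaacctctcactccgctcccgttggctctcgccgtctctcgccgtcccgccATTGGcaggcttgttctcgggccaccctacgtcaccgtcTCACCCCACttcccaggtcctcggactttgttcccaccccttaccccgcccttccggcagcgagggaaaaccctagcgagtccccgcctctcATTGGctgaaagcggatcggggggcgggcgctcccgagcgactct
Insig1: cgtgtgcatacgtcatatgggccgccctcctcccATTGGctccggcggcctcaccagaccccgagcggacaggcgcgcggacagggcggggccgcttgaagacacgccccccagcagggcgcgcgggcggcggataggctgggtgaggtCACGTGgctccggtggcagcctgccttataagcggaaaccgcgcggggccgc
Srebf2: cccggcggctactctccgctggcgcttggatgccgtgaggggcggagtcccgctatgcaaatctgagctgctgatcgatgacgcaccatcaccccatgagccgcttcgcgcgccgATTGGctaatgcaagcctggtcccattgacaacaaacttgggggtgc
The 250 bases before the RefSeq start were searched on both strands in 32851 mouse promoters. The letters TCACNCCAC stood in 1.05% of them and, among the 5 matched members, in Hmgcs1 alone, at 137 to 129 bases before the start. An E-box was present in 6.02% of all promoters and in 1 member, Insig1, at 101 to 96 bases before the start. A CCAAT box was found in 33.8% of all promoters and in 5 of 5 members, and the GC box GGGCGG in 32.7% and in 5 of 5. Of 14 other enzymes of synthesis, 13 had a promoter in the table, of which 0 held the SREBP motif, 2 an E-box, 11 a CCAAT box and 12 a GC box. In the members no match overlapped a match to another of these motifs, and the palindromic E-box was counted as 1 site. A match is a run of letters and not a measured binding site. The search allowed only the letters given, so that a promoter without a match may still hold a site with other letters.

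The table places the members on several chromosomes of GRCm38. The control genes are Srebf2 (ENSMUSG00000022463) at chr15:82147181-82205379 on the plus strand and Insig1 (ENSMUSG00000045294) at chr5:28071363-28078662 on the plus strand. The enzymes of the early steps are Hmgcs1 (ENSMUSG00000093930) at chr13:119690379-119708260 on the plus strand and Idi1 (ENSMUSG00000058258) at chr13:8885501-8892451 on the plus strand. Those of the squalene and lanosterol steps are Fdft1 (ENSMUSG00000021273) at chr14:63145150-63179578 on the minus strand, Sqle (ENSMUSG00000022351) at chr15:59315077-59331192 on the plus strand and Lss (ENSMUSG00000033105) at chr10:76531588-76557138 on the plus strand.

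Levels are given as FPKM, fragments per kilobase of transcript scaled to library depth, and differences as log2 fold changes with their standard error from edgeR on the estimated counts of 20251 genes. An adjusted p under 0.05 was called. Total estimated counts were 73000203 to 78650116 per mouse in the Ctrl group and 72149987 to 78711121 in the PBS group. In the FLX group replicates 1 and 2 had 79061296 and 74093215, whereas replicates 3 to 6 had 48928823 to 52073640. The lowest estimated count of a member in any mouse was 760, for Lss. One library stood apart. PBS replicate 6 had 49.2 FPKM of Lcn2, an injury marker of the tubule, and 22.1 of the neutrophil gene S100a8, and was taken to be the mouse that the study left out. The comparisons use the other 5 PBS mice unless all 6 are named, and values with all 6 are set beside them. PBS values are listed in the order of replicates 1 to 5. Nothing in the labels says how the mice were caged or processed, and p-values measure the spread between these mice only.

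The members lay at very different levels. Averaged over 18 mice, Hmgcs1 stood at 76.4 FPKM, Idi1 at 25.3, Insig1 at 16.6, Sqle at 10.9, Srebf2 at 10.8, Fdft1 at 9.12 and Lss at 1.87. Hmgcs1 was above Idi1 in 18 of 18 mice and Fdft1 above Lss in 18 of 18. Idi1 was above Insig1 in 13 mice and Insig1 above Sqle in 16. Sqle and Srebf2 could not be ordered, with Sqle the higher in 6 mice. Among 21 genes that comprise the members and 14 other enzymes of synthesis, Hmgcs1 was the highest in Ctrl kidneys (mean 69.1 FPKM) and Lss the lowest (1.52 FPKM).

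**Figure D1:**
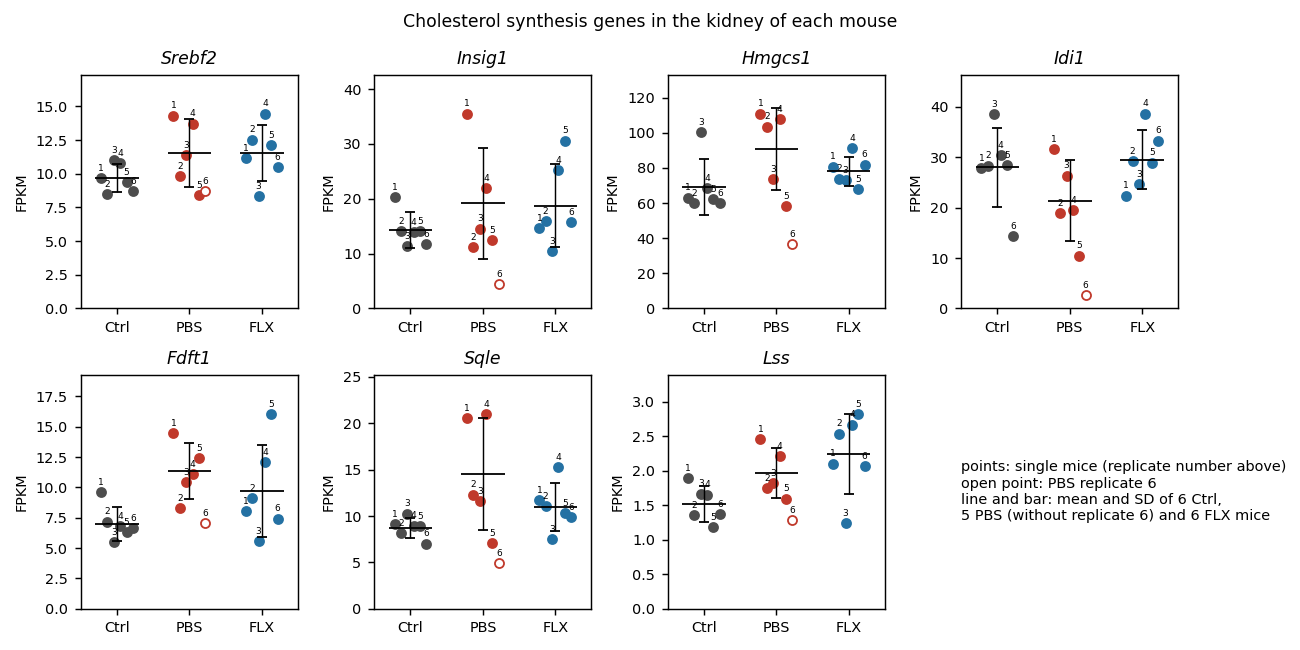
FPKM of the 7 genes in each mouse by group, with the mean and SD of 6 Ctrl, 5 PBS and 6 FLX mice; the open point is PBS replicate 6 and small numbers are replicates. PBS replicates 1 and 4 sit high for Srebf2, Insig1, Hmgcs1 and Sqle, PBS replicate 6 is the lowest mouse for Insig1, Hmgcs1, Sqle and Idi1, and in each panel the groups overlap.

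The first question was how the PBS group, defeated and injected, differed from the Ctrl group in these genes. None of the 7 members passed the test, against 3.81% of all genes tested (772 of 20251). At an unadjusted p under 0.05, 4 of 7 passed, namely Hmgcs1, Fdft1, Sqle and Lss, against 17.9% of all genes. The fold change was above 0 in 6 of 7, against 48.9% of all genes, with a median log2 fold change of 0.42 over the members and -0.01 over all genes. With all 6 PBS mice the median of the members was 0.26 and 2 of 7 passed at an unadjusted p under 0.05. The groups overlapped in FPKM for all 7 members, whereas they did not overlap for 3.52% of all genes. By DESeq2, a second count model that called 1413 of all genes, Sqle (adjusted p = 0.013) and Fdft1 (adjusted p = 0.0174) were called higher.

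The control genes come first. Srebf2, which encodes SREBP-2, was at 8.49 to 11.0 FPKM in Ctrl mice (median 9.53, n = 6). In PBS replicates 1 to 5 it was at 14.3, 9.84, 11.4, 13.7 and 8.39 FPKM, and in replicate 6 at 8.72. Replicates 1, 3 and 4 were above every Ctrl mouse and replicate 5 was below every one. From Ctrl to PBS the log2 fold change was 0.27 ± 0.14 (SE; adjusted p = 0.335), and 0.20 with all 6 PBS mice (adjusted p = 0.473).

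Insig1, whose protein retains the SREBP-SCAP pair and whose gene is itself a target of SREBP, was at 11.3 to 20.4 FPKM in Ctrl mice (median 14.01). The 5 PBS mice had 35.5, 11.2, 14.6, 22.01 and 12.5 FPKM, and replicate 6 had 4.49. Replicates 1 and 4 were above every Ctrl mouse, and replicate 1 alone carried much of the difference. The log2 fold change of 0.44 ± 0.29 (adjusted p = 0.467) was 0.09 without replicate 1 and 0.24 with all 6 PBS mice (adjusted p = 0.762).

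The enzymes follow in pathway order. Hmgcs1, the synthase that makes HMG-CoA, was at 60.1 to 101 FPKM in Ctrl mice (median 62.7), of which 5 lay at 68.4 or below. The PBS mice had 111, 104, 73.7, 108 and 58.2 FPKM, and replicate 6 had 36.7. Replicates 1, 2 and 4 exceeded every Ctrl mouse, while replicates 5 and 6 lay below every one. On the log2 scale the fold change was 0.42 ± 0.16 (adjusted p = 0.170), and 0.26 with all 6 (adjusted p = 0.535). It passed the threshold without Ctrl replicate 3, the high Ctrl mouse (adjusted p = 0.0368), and without PBS replicate 5 (adjusted p = 0.0348).

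Idi1, the isomerase that interconverts the isoprenoid units of 5 carbons, was the member with the opposite sign. Ctrl mice had 14.4 to 38.6 FPKM (median 28.4). PBS mice had 31.7, 18.9, 26.4, 19.5 and 10.5 FPKM, and replicate 6 had 2.72. No PBS mouse was above the highest Ctrl mouse, and replicates 5 and 6 were below the lowest. As a log2 fold change this was -0.38 ± 0.24 (adjusted p = 0.439), and -0.60 with all 6 PBS mice (adjusted p = 0.378).

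Fdft1 encodes squalene synthase, which commits the pathway to sterols. Ctrl mice had 5.47 to 9.61 FPKM (median 6.71), and PBS mice 14.5, 8.31, 10.4, 11.1 and 12.4 FPKM, with 7.04 in replicate 6. PBS replicates 1, 3, 4 and 5 were above every Ctrl mouse, and the overlap came from PBS replicate 2 and Ctrl replicate 1. In log2 the fold change was 0.70 ± 0.21 (adjusted p = 0.0735; 0.60 and adjusted p = 0.124 with all 6). The exact two-sided permutation test on log2 FPKM gave p = 0.00866 (5 against 6 mice, smallest possible 0.00433), and 0.0173 with all 6. The call was made without FLX replicate 3 (adjusted p = 0.0486) or 5 (adjusted p = 0.0299), which enter through the shared estimate of spread, and with the FLX group left out (adjusted p = 0.0376).

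The last exon of Fdft1 shares 774 of its gene's 4227 exon bases with Ctsb, the cathepsin B gene on the other strand. Libraries were stranded, but no source used here says whether the counts were made by strand, so that reads in the shared bases may have been given to either gene. Ctsb was at 79.8 to 93.1 FPKM in Ctrl mice and at 99.0 to 111 in the 5 PBS mice, with no overlap. Its own log2 fold change was 0.29 ± 0.09 (adjusted p = 0.084), and its part in the Fdft1 values was not tested. The 4 genes that overlapped Srebf2, Lss, Idi1 or Hmgcs1 had means of 0.0101 to 0.171 FPKM.

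Sqle, squalene epoxidase, had the largest fold change of the members with 5 PBS mice. Ctrl mice had 7.02 to 10.2 FPKM (median 8.92), and PBS mice 20.6, 12.3, 11.6, 21.0 and 7.11 FPKM, with 4.88 in replicate 6. The first 4 PBS replicates were above every Ctrl mouse, whereas replicate 5 lay inside the Ctrl range. Its log2 fold change was 0.75 ± 0.22 (adjusted p = 0.0712), and 0.58 with all 6 PBS mice (adjusted p = 0.249). Without PBS replicate 5 it was 0.94 and was called (adjusted p = 0.00881). The exact permutation test gave p = 0.0563 with 5 PBS mice and 0.292 with 6.

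Lss, lanosterol synthase, closes the first sterol rings. Ctrl mice had 1.18 to 1.89 FPKM (median 1.51), and PBS mice 2.46, 1.75, 1.82, 2.21 and 1.60 FPKM, with 1.28 in replicate 6. Replicates 1 and 4 were above every Ctrl mouse. The log2 fold change was 0.39 ± 0.17 (adjusted p = 0.245; 0.29 and adjusted p = 0.388 with all 6), and the exact permutation p was 0.0476 with 5 PBS mice and 0.147 with 6.

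**Figure D2:**
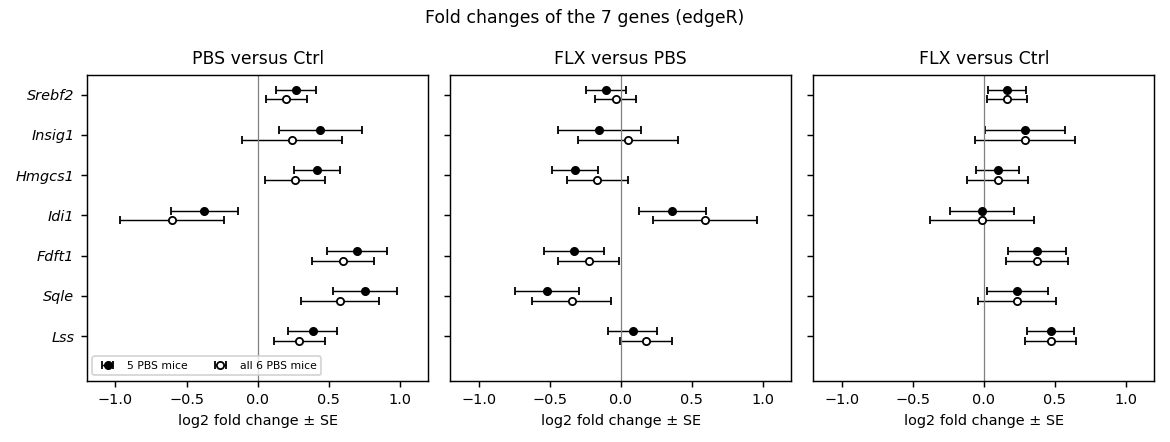
Log2 fold change with its SE (edgeR) of the 7 genes in the 3 comparisons, filled with 5 PBS mice and open with all 6. No gene was called in any comparison; in PBS versus Ctrl 6 of 7 lie above 0 and Idi1 below (-0.38).

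The next question was what fluoxetine did under CSDS, FLX against PBS. This comparison shares the PBS mice with the first. None of the 7 members passed, against 0.726% of all genes (147 of 20251), and 1 of 7, Sqle, had an unadjusted p under 0.05, against 11.1%. The fold change was above 0 in 2 of 7, against 49.5% of all genes. The members' median log2 fold change was -0.15, against -0.003 over all genes, and -0.04 with all 6 PBS mice. All 7 members overlapped between the groups, which did not overlap for 2.92% of all genes.

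In FLX mice Srebf2 was at 8.31 to 14.5 FPKM (median 11.6) and Insig1 at 10.4 to 30.6 (median 15.8). Hmgcs1 was at 67.7 to 91.4 FPKM (median 77.4), a narrower range than in either other group, and lay between the lowest and highest PBS mice throughout. Sqle was at 7.55 to 15.3 FPKM (median 10.7), also inside the PBS range. The log2 fold change from PBS was -0.11 ± 0.14 for Srebf2 (adjusted p = 0.868) and -0.15 ± 0.29 for Insig1 (adjusted p = 0.915). It was -0.32 ± 0.16 for Hmgcs1 (adjusted p = 0.486) and -0.52 ± 0.22 for Sqle (adjusted p = 0.376).

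Idi1 was at 22.4 to 38.7 FPKM in FLX mice (median 29.1), with 2 mice above every PBS mouse. Its log2 fold change from PBS was 0.36 ± 0.24 (adjusted p = 0.633). The exact permutation p was 0.0779 with 5 PBS mice and 0.039 with all 6. Fdft1 ranged from 5.60 to 16.1 FPKM (median 8.58), the widest spread of the 3 groups, with FLX replicate 5 above and 3 FLX mice below every one of the 5 PBS mice (-0.33 ± 0.21, adjusted p = 0.628). Lss was at 1.24 to 2.82 FPKM (median 2.32), with 3 FLX mice above every PBS mouse (0.08 ± 0.17, adjusted p = 0.921). With all 6 PBS mice the 7 log2 fold changes ran from -0.35 for Sqle to 0.59 for Idi1, with adjusted p of 0.565 to 0.976, and that of Insig1 changed sign (0.05). The intervals were wide: for Sqle, the 95% interval of the log2 fold change was -0.96 to -0.08 (approximate, before adjustment), and for Insig1 -0.72 to 0.42.

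FLX was then set against Ctrl, which asks how far treated, defeated mice stood from undefeated ones and shares mice with both other comparisons. None of 7 members passed, against 3.67% of all genes, and 1 of 7, Lss, had an unadjusted p under 0.05, against 20.4%. The fold change was above 0 in 6 of 7, against 48.8% of all genes, with a median log2 fold change of 0.24 over the members and -0.01 over all genes. The groups overlapped for all 7 members, whereas they did not for 3.4% of all genes. Lss was above every Ctrl mouse in 5 of 6 FLX mice, and its fold change was 0.47 ± 0.17 in log2 (adjusted p = 0.118; exact permutation p = 0.0281). FLX replicate 3 was the exception at 1.24 FPKM, and without it Lss was called (0.60, adjusted p = 0.0244). The other 6 members ranged from -0.01 for Idi1 to 0.37 for Fdft1, with adjusted p of 0.306 to 0.983.

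The members also varied widely between mice of 1 group. PBS replicate 1 was among the 3 highest of 18 mice for 5 of 7 members and FLX replicate 4 also for 5, with PBS replicate 4 and FLX replicate 5 so for 3 each. PBS replicate 6 was among the 3 lowest for 5 members, PBS replicate 5 and FLX replicate 3 for 4 each, and Ctrl replicate 6 for 3. The mean z-score of the 7 genes ran from -0.85 to 0.02 in Ctrl mice and from -0.79 to 1.15 in FLX mice. It ran from -1.93 to 1.46 in all 6 PBS mice and from -0.58 to 1.46 in the 5 without replicate 6. Within groups, the coefficient of variation of FPKM was higher in the 5 PBS than in the Ctrl mice for 7 of 7 members, against 47.8% of 20234 genes. The difference was wide for Sqle (41.8% against 12.3%) and Insig1 (52.5% against 22.7%), and negligible for Fdft1 (20.2% against 20.1%). In FLX mice it was higher than in Ctrl for 5 of 7, against 44.2% of genes.

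**Figure D3:**
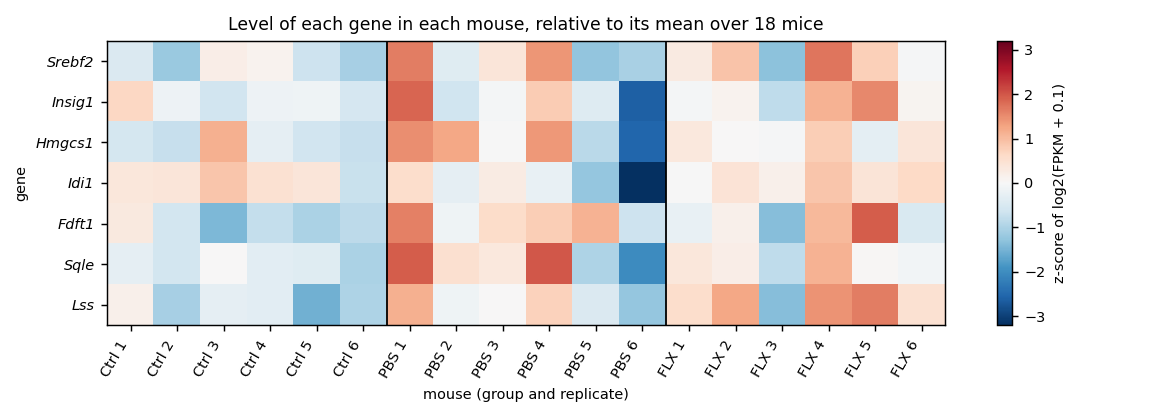
The z-score of log2(FPKM + 0.1) of each gene (rows) in each of 18 mice (columns), taken over all 18. PBS replicate 1 (mean z-score 1.46) and FLX replicate 4 (1.15) are high for most genes and PBS replicate 6 (-1.93) is low.

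The libraries differed also in markers of other tissue. The summed FPKM of 7 fat markers was 890.0 in PBS replicate 5 and 634 in FLX replicate 5, against 11.3 to 219.5 in the other 16 mice. The mean z-score of the members was -0.58 in PBS replicate 5 and 0.86 in FLX replicate 5. PBS replicate 1, with the highest mean z-score of the members, had 141.5 FPKM of the fat markers. FLX replicate 4, with the next highest, had 49.1, and PBS replicate 6, with the lowest, had 37.45. Ctrl replicate 6, also low for the members (-0.85), had 119.9. The group medians were 21.7 FPKM in Ctrl, 59.8 in all 6 PBS and 52.2 in FLX mice. All 7 fat markers had a log2 fold change above 0 in PBS versus Ctrl (median 1.97) and in FLX versus Ctrl (median 2.14), and 0 of 7 were called in either (3 and 2 at an unadjusted p under 0.05). The markers did not rank the mice alike. The brown fat gene Ucp1 was at 214 FPKM in PBS replicate 5 and at 54.6 in FLX replicate 5, below the 65.0 of FLX replicate 2, and Lep, the leptin gene of fat cells, was at 0.0485 in PBS replicate 5 and 4.78 in FLX replicate 5. With PBS and FLX replicates 5 left out, an alternative chosen after the data were seen, 2 of 7 members were called in PBS versus Ctrl, Sqle (0.94, adjusted p = 0.0103) and Hmgcs1 (0.56, adjusted p = 0.029). That fit called 752 of all genes, against 772 with these mice kept. Both members were also called with PBS replicate 5 alone left out (adjusted p = 0.00881 and 0.0348). The part of fat in these calls was not tested. The summed level of 6 neutrophil markers was 1.03 to 3.09 FPKM in Ctrl, 6.77 to 65.4 in all 6 PBS and 0.166 to 4.95 in FLX mice. Of these, S100a8 (2.96, adjusted p = 0.0205), S100a9 (2.66, adjusted p = 0.0285) and Ngp (adjusted p = 0.0289; at 0 in all 6 Ctrl mice) were called higher in PBS than in Ctrl mice, and S100a8 was called lower in FLX than in PBS mice (-3.14, adjusted p = 0.0402). That last call was lost on leaving out any 1 of 11 of the 17 mice (adjusted p of 0.053 to 0.142) and with no filter (adjusted p = 0.0656). It was also lost by limma with 0.01 added (adjusted p = 0.102) and with FLX replicates 1 and 2 only (adjusted p = 0.563). The calls in PBS versus Ctrl were lost on leaving out any 1 of 2 mice for S100a8, of 6 for S100a9 and of 5 for Ngp. By limma, S100a9 was lost with 0.01 added (adjusted p = 0.19), and Ngp with 0.1 (0.0562) and 1 added (0.0983). The part of these cells in the members' values was not tested.

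The 4 macrophage markers summed to 11.1 to 13.8 FPKM in Ctrl, 9.94 to 12.5 in all 6 PBS and 12.1 to 17.9 in FLX mice. None of the 4 was called in any comparison, and 0, 2 and 2 had an unadjusted p under 0.05 in PBS versus Ctrl, FLX versus PBS and FLX versus Ctrl. In PBS versus Ctrl, Adgre1 had 0.29 (adjusted p = 0.586) and Csf1r -0.13 (adjusted p = 0.526). In FLX versus PBS 4 of 4 lay above 0 (median 0.39). In FLX versus Ctrl, Adgre1 had 0.83 (adjusted p = 0.0516) and was called by DESeq2 (adjusted p = 0.00928), by limma with 0.1 added (adjusted p = 0.0499) and with a stricter filter on low counts (adjusted p = 0.0397). The highest sum, 17.9, was in FLX replicate 4, which was also high for the members, and the part of these cells in the members' values was not tested. Markers of the adrenal gland, which lies on the kidney and is rich in cholesterol, summed to 1.28 to 5.84 FPKM in 17 mice and to 51.3 in PBS replicate 6, of which Akr1b7 made 50.3. The highest level of Hsd3b1 in any mouse was 1.02 FPKM, in PBS replicate 5, and that of Mc2r 0.685, in PBS replicate 6. Of the 12 adrenal markers 3 were tested, and 0 were called in PBS versus Ctrl (Hsd3b1 adjusted p = 0.245, Mc2r 0.456). Cyp11a1, Cyp11b1 and Cyp21a1 were highest in PBS replicate 5, at 0.324, 0.420 and 0.518 FPKM. In PBS replicate 6 they were at 0.0256, 0.0369 and 0.0488. Th, Pnmt and Chga were highest in FLX replicate 2. The part of adrenal tissue in the members' values was not tested. The 5 markers of kidney segments, among them Umod of the thick ascending limb (adjusted p = 0.508) and Slc12a3 of the distal convoluted tubule (adjusted p = 0.426), summed to 1720.0 to 2281 FPKM, and 0 of 5 were called in PBS versus Ctrl (0 at an unadjusted p under 0.05).

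The circadian clock is known to time sterol synthesis in the liver. A few of its genes, chosen after their values were seen and given with no test, are set beside the members. Dbp, an output gene of the clock, was at 9.39 to 22.1 FPKM in Ctrl, 3.23 to 23.0 in all 6 PBS and 0.694 to 1.69 in FLX mice. Nr1d1, a repressor of the clock, was at 10.5 to 24.0 FPKM in Ctrl, 7.27 to 33.3 in all 6 PBS and 2.10 to 5.37 in FLX mice. For Dbp and Nr1d1 PBS and Ctrl mice overlapped and FLX mice lay below every other mouse. Per1, another clock gene, was at 1.82 to 4.12 FPKM in Ctrl, 7.56 to 16.4 in all 6 PBS and 3.83 to 7.38 in FLX mice. For Per1 the PBS mice lay above every other mouse, and FLX and Ctrl mice overlapped. The study reports that Per1 rose with CSDS and that fluoxetine reversed this. No source used here gives the hour at which kidneys were taken, and the part of the clock in the members' values was not tested.

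Other enzymes of synthesis gave the calls that the members did not. Of 14, 3 were called higher in PBS than in Ctrl mice and 0 lower, against 2.14% of all genes called higher, and the median log2 fold change of the list was 0.39. With all 6 PBS mice 0 of 14 were called (4 at an unadjusted p under 0.05) and the median was 0.23. In FLX versus PBS 1 of 14 was called, lower, against 0.726% of all genes called in either direction. In FLX versus Ctrl 0 of 14 were called (2 at an unadjusted p under 0.05), against 3.67% of all genes.

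Cyp51, the lanosterol demethylase that acts next after Lss, was at 50.1 to 60.2 FPKM in Ctrl mice (median 54.1). PBS mice had 94.5, 68.7, 83.5, 81.0 and 64.0 FPKM, all above every Ctrl mouse, and replicate 6 had 5.59. FLX mice had 43.4 to 64.6 FPKM (median 53.1), of which 5 lay below every one of the 5 PBS mice. The gene rose from Ctrl to PBS (0.53 ± 0.11, adjusted p = 0.0131) and was lower in FLX than in PBS mice (-0.62 ± 0.11, adjusted p = 0.0157). Both calls were lost with all 6 PBS mice (0.29, adjusted p = 0.719, and -0.38, adjusted p = 0.749). The second was also lost without PBS replicate 4 (adjusted p = 0.052) and with FLX replicates 1 and 2 only (adjusted p = 0.26).

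Nsdhl, a sterol dehydrogenase of the demethylation steps, was at 14.5 to 19.0 FPKM in Ctrl mice (median 17.2) and at 28.2, 24.7, 26.2, 27.7 and 20.5 in PBS mice, with 10.9 in replicate 6. It rose without overlap of the 5 PBS and 6 Ctrl mice (0.59 ± 0.11, adjusted p = 0.00415; 0.44 and adjusted p = 0.158 with all 6). FLX mice had 17.03 to 26.1 FPKM (median 22.8; -0.32 from PBS, adjusted p = 0.211). Acat2, the cytosolic thiolase at the head of the pathway, was at 27.1 to 35.3 FPKM in Ctrl mice (median 32.1) and at 54.0, 41.2, 41.1, 53.9 and 44.3 in PBS mice, with 31.0 in replicate 6. It rose too (0.60 ± 0.14, adjusted p = 0.0189). That call was lost without PBS replicate 1 (adjusted p = 0.0671) or 4 (adjusted p = 0.0623) and with all 6 (adjusted p = 0.0632).

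Msmo1, which removes the methyl groups at carbon C4, missed the threshold in PBS versus Ctrl (0.73 ± 0.29, adjusted p = 0.189).

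**Figure D4:**
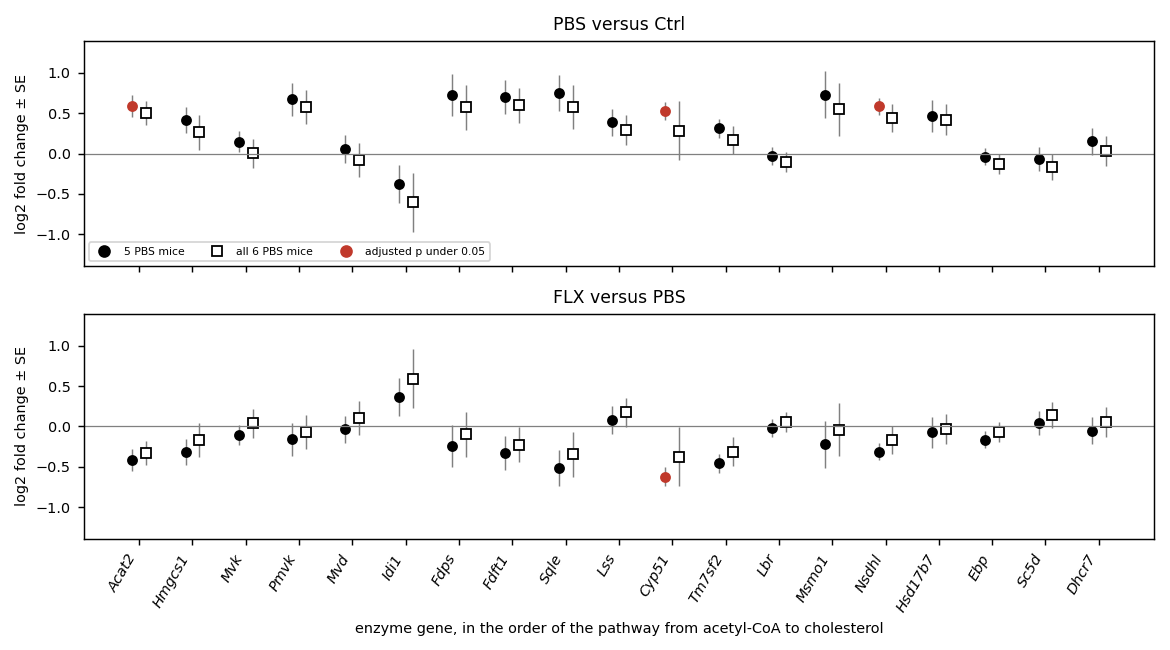
Log2 fold change with SE of the enzyme genes in pathway order for PBS versus Ctrl (top) and FLX versus PBS (bottom), as circles with 5 PBS mice and squares with all 6; red marks an adjusted p under 0.05. Acat2, Cyp51 and Nsdhl are called in the upper panel and Cyp51 in the lower, each with 5 PBS mice only.

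Of 13 genes of SREBP control, 0 were called in any comparison, and 1 in PBS versus Ctrl and 2 in each other comparison had an unadjusted p under 0.05. Insig2, the second INSIG gene, was at 9.003 to 10.1 FPKM in Ctrl mice and at 10.9, 10.7, 11.9, 11.1 and 9.81 in PBS mice (0.19 ± 0.06, adjusted p = 0.11). It was called in PBS versus Ctrl by DESeq2 (adjusted p = 0.0448), without PBS replicate 5 (adjusted p = 0.0407) and with both replicates 5 left out (adjusted p = 0.0403), and in FLX versus Ctrl by limma (adjusted p of 0.0342 to 0.0373, against 0.209 by edgeR). Scap lay within 8.13 to 8.54 FPKM in Ctrl mice and at 6.38 to 8.21 in the 5 PBS mice (-0.12 ± 0.08, adjusted p = 0.424). Srebf1, the gene of the sister factor of fatty acid synthesis, differed by 0.17 between PBS and Ctrl on the log2 scale (adjusted p = 0.78) and by 0.58 between FLX and Ctrl (adjusted p = 0.176). Rnf145, a ubiquitin ligase of the sterol sensors, had a median of 7.34 FPKM in the 5 PBS mice and was at 10.6 to 13.4 in the FLX mice. The groups did not overlap (0.45 ± 0.13, adjusted p = 0.117), and the gene was called by DESeq2 (adjusted p = 0.0262), by limma (adjusted p of 0.0259 to 0.0264) and without PBS replicate 4 (adjusted p = 0.0458).

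Of 15 genes of uptake and trafficking, 0 were called in any comparison, and 0, 3 and 2 had an unadjusted p under 0.05 in PBS versus Ctrl, FLX versus PBS and FLX versus Ctrl. In PBS versus Ctrl 14 of 15 had a fold change above 0, against 48.9% of all genes, with a median of only 0.08 on the log2 scale. The list holds Npc1l1, which was at 0.0961 FPKM or below in every mouse. Stard4, a carrier of cholesterol in the cytosol, had 0.25 ± 0.20 (adjusted p = 0.556) and Gramd1b, which moves cholesterol in from the plasma membrane, 0.34 ± 0.17 (adjusted p = 0.285). Scarb1, the scavenger receptor that takes up HDL cholesterol, had 0.29 ± 0.20 (adjusted p = 0.479).

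**Figure D5:**
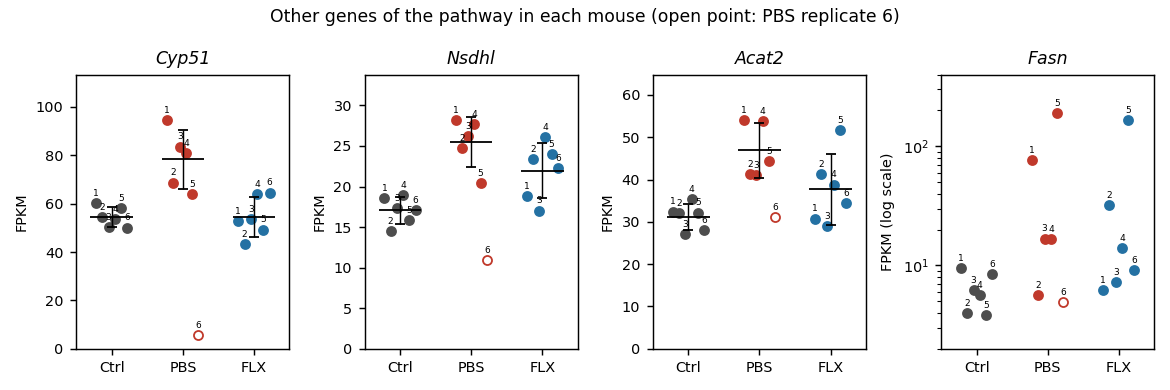
FPKM of Cyp51, Nsdhl, Acat2 and Fasn in each mouse by group, with the mean and SD of 6 Ctrl, 5 PBS and 6 FLX mice; the Fasn axis is logarithmic and has no mean, and the open point is PBS replicate 6. Cyp51, Nsdhl and Acat2 separate the 5 PBS from the 6 Ctrl mice, and Fasn is highest in PBS replicate 5 (191) and FLX replicate 5 (165).

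In the neighbouring pathways few genes passed. None of 15 tested genes of efflux, esterification and oxysterols was called in any comparison, and 2, 1 and 1 had an unadjusted p under 0.05. Apoe, the apolipoprotein of lipid efflux, had 0.54 ± 0.17 in PBS versus Ctrl (adjusted p = 0.0947) and was called with all 6 mice (0.82, adjusted p = 0.0485), of which replicate 6 had 256 FPKM. With replicate 6 left out, Apoe was called by DESeq2 (adjusted p = 0.0312) and with only the groups compared (adjusted p = 0.0218). It was also called with FLX replicates 1 and 2 only (adjusted p = 0.0135) and without FLX replicate 5 (0.035) or 6 (0.0447). Of the 5 PBS mice, 4 lay above every Ctrl mouse. Cyp7b1, which breaks down oxysterols, had -0.59 ± 0.23 in PBS versus Ctrl (adjusted p = 0.165). It was at 53.77 to 82.15 FPKM in Ctrl mice and at 31.57 to 53.32 in the 5 PBS mice, with no overlap. Groups did not overlap for 3.52% of all genes. The exact permutation p was 0.00433, the smallest possible. PBS replicate 6 stood at 2.84 FPKM, against 31.6 to 99.6 in the other 17 mice. Of 9 tested genes of the isoprenoid branch 0 were called (1, 0 and 0 at an unadjusted p under 0.05), with Nus1 of dolichol synthesis at 0.30 (adjusted p = 0.0866) and Fnta, a farnesyltransferase subunit, at 0.10 (adjusted p = 0.485) in PBS versus Ctrl. Nus1 was called there by DESeq2 (adjusted p = 0.0327), without PBS replicate 5 (0.013) or Ctrl replicate 3 (0.0378), and with both replicates 5 left out (0.0124). Fnta was called in FLX versus Ctrl by limma (adjusted p of 0.0334 to 0.0373, against 0.291 by edgeR).

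Of 15 genes of fatty acid synthesis, the targets of SREBP-1, 1 was called in PBS versus Ctrl, against 3.81% of all genes. In FLX versus Ctrl 1 was called, against 3.67%. At an unadjusted p under 0.05 there were 10 of 15 in PBS versus Ctrl, against 17.9% of all genes, 1 in FLX versus PBS, against 11.1%, and 5 in FLX versus Ctrl, against 20.4%. In PBS versus Ctrl 13 of 15 lay above 0, against 48.9% of all genes, with a median of 0.49 on the log2 scale. Several of these genes were highest in PBS and FLX replicates 5, the mice with the highest summed fat markers. They were Acaca (18.8 and 19.9 FPKM, against 0.949 to 1.69 in Ctrl mice), Acacb, Scd1, Elovl6, Pnpla3, Me1 and Fasn. Others, among them Acly, Scd2 and Fads1, were not highest in both. The part of fat in the counts of this list was not tested. Fasn, fatty acid synthase, rose in PBS versus Ctrl (3.28 ± 0.90, adjusted p = 0.0483). PBS mice had 77.0, 5.66, 16.8, 16.6 and 191 FPKM, against 3.81 to 9.47 in Ctrl mice, with the highest value in the mouse with the highest summed fat markers. Without that mouse the adjusted p was 0.153, and it was lost with all 6 PBS mice (adjusted p = 0.0712). The call was lost on leaving out any Ctrl mouse (adjusted p of 0.0514 to 0.11), PBS replicate 1 (0.104) or 4 (0.0567) or FLX replicate 2 (0.0618). It was lost as well by limma (adjusted p of 0.147 to 0.167), with upper-quartile scaling (0.052) and with no filter (0.0766). Scd2, a fatty acid desaturase, rose in FLX versus Ctrl (0.76 ± 0.18, adjusted p = 0.0291). FLX mice had 16.5 to 35.4 FPKM and Ctrl mice 10.6 to 17.6. The call was lost without Ctrl replicates 2, 5 or 6 or FLX replicates 4 or 5 (adjusted p of 0.05 to 0.0746) and with FLX replicates 1 and 2 only (adjusted p = 0.372). It was also lost with PBS and FLX replicates 5 left out (adjusted p = 0.0604). Fads1, another desaturase, had 0.40 ± 0.12 in PBS versus Ctrl (adjusted p = 0.0658). It was called by DESeq2 (adjusted p = 0.0227), without PBS replicate 5 (0.0201) or FLX replicate 3 (0.0352), and with both replicates 5 left out (0.0233).

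The genes whose pattern over the 18 mice was most like that of the members were ranked by Pearson's r of log2(FPKM + 0.1) with the mean z-score of the 7, among 12145 genes with a mean of at least 1 FPKM. These values describe 18 libraries that share groups and the outlying PBS replicate 6. Of the list genes reported here the highest were Msmo1 (r = 0.942), Nsdhl (0.892), Dhcr7 (0.803) and Fads1 (0.779). Without PBS replicates 1 and 6, the mice farthest from the median score, they were 0.919, 0.806, 0.703 and 0.803 over 16 mice. Outside the lists the highest were Cyb5b, an outer mitochondrial cytochrome b5 (r = 0.854), Tmem64 (0.843), Trp53inp2 (0.840), Map7 (0.837) and Taf13 (0.826). Over the 16 mice they were between 0.705 for Taf13 and 0.818 for Trp53inp2. The lowest were Slc25a28, a mitochondrial iron carrier (r = -0.896), Fcgrt, the neonatal Fc receptor (-0.861), and Ldb1 (-0.851), and over the 16 mice -0.886, -0.751 and -0.861. Of these 8 genes outside the lists, Trp53inp2 was called in PBS versus Ctrl (0.43, adjusted p = 0.0223; 0.35 and adjusted p = 0.105 with all 6 PBS mice). The members themselves are part of the score, with r of 0.678 for Idi1 to 0.923 for Sqle.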

How the data were processed

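Poly(A) RNA of the kidneys was sequenced in read pairs from stranded libraries with molecular identifiers. The study's methods name fastp, HISAT-3N, the build GRCm38 and StringTie, whereas the submitters' processing notes list cutadapt 1.9, HISAT2 2.0.4, UMI-tools, StringTie 1.3.4d, DESeq2 and edgeR. For each gene and mouse the authors deposited an FPKM value, normalized for length and depth, and an estimated count, made with a tool not given in the sources used here. All estimated counts were whole numbers and were used as such. The deposited FPKM values give the levels.

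Groups were taken from the sample titles. Counts were tested with edgeR 4.0.16 in R 4.3.3 (TMM scaling, filterByExpr, 1 quasi-likelihood fit of 3 groups, two-sided), with Benjamini-Hochberg adjustment over 20251 genes. The fit used 17 mice, without PBS replicate 6: the study deleted a PBS mouse with excessive expression of inflammatory genes but did not name it, and this choice is inferred from the values. Single genes were also compared by exact two-sided permutation tests of log2(FPKM + 0.1) in scipy 1.17.1, whose smallest p is 0.00433 for 5 against 6 mice and 0.00216 for 6 against 6. Alternatives were DESeq2 1.42.0, limma 3.58.1 on log2(FPKM + 0.01, 0.1 or 1), upper-quartile scaling, other filters (none, or at least 100 counts in 5 mice), fits of the groups compared only, a replicate block, and mice left out. The scripts were tested on simulated data.

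The 7 genes and the gene lists were chosen with earlier results of these data known. Named besides the members were a fixed set of pathway genes, any list gene called in a comparison, the 2 of each list with the smallest p in PBS versus Ctrl, and the genes most and least like the members. A few genes of the fixed set and of the lists are not reported here and enter no list count, though they stayed in the fits. Lcn2, Akr1b7, Ctsb, Dbp, Nr1d1 and Per1 were chosen after values were seen. Replicate numbers are shared between groups, but the 16 same-numbered pairs deviated from their group means with correlations of -0.203 to 0.226, so that the numbers were not taken to pair mice. Promoters are from RefSeq and exons from GENCODE.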

Additional observations from a re-analysis of the deposited data

Results flagged for a closer look

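In 5 of 51 groups, over 17 genes checked with 6 mice each, 1 mouse lay farther from the others than Dixon's test allows at the 95% level, which chance gives in about 1 group in 20. Among Ctrl mice, Insig1 was at 20.4 FPKM in replicate 1, against 11.3 to 14.2 in the other 5. Hmgcs1 was at 101 FPKM in Ctrl replicate 3, against 60.1 to 68.4 in the others. Without Ctrl replicate 3, Hmgcs1 was called in PBS versus Ctrl (adjusted p = 0.0368, edgeR).

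Scap was at 6.38 FPKM in PBS replicate 4, against 7.64 to 8.21 in the other PBS mice. Cyp51 was at 5.59 FPKM in PBS replicate 6, against 64.0 to 94.5, and its calls ended when this mouse was included. Fasn was at 165 FPKM in FLX replicate 5, against 6.19 to 32.3 in the other FLX mice, and this mouse and PBS replicate 5 had the highest summed fat markers. In PBS replicate 6, which the comparisons leave out, Insig2 was at 11.7 FPKM, above the Ctrl range of 9.003 to 10.1, while Insig1 was at 4.49, below it.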

How the results depend on the processing

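None of the 7 members was called by edgeR in any comparison, and this count changed as follows. In PBS versus Ctrl it was 2 by DESeq2, 1 with the fit on the groups compared only, 1 with FLX replicates 1 and 2 only, 2 with PBS and FLX replicates 5 left out, and 0 to 2 on leaving out 1 mouse at a time. In FLX versus Ctrl it was 0 to 1 on leaving out 1 mouse, and in FLX versus PBS 0 throughout. Limma gave 0 in each comparison. The count over all genes in PBS versus Ctrl (772) was 1413 by DESeq2, 496 with only the groups compared, 419 with a replicate block and 388 to 1662 on leaving out 1 mouse. It was 612 with FLX replicates 1 and 2 only and 752 with both replicates 5 left out. The count in FLX versus PBS (147) was 88 with no filter, 498 by DESeq2, 255, 242 and 244 by limma (added 0.1, 1 and 0.01), 95 with only the groups compared, 67 with the block, 0 with FLX replicates 1 and 2 only, and 47 to 250 on leaving out 1 mouse. The count in FLX versus Ctrl (744) was 354 with all 6 PBS mice, 378 with no filter, 1615 by DESeq2, 1214, 1197 and 1165 by limma, 258 with the block, 4 with FLX replicates 1 and 2 only, 350 with both replicates 5 left out, and 271 to 3099 on leaving out 1 mouse. Leaving out Ctrl replicate 3 gave the highest count each time. The causes of these changes were not tested. The replicate block called no member, and of 10 calls of other list genes named in the text it ended 5, of Fasn, Ngp, S100a8 and S100a9 in PBS versus Ctrl and S100a8 in FLX versus PBS (adjusted p of 0.103 to 0.17).

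Signs of the following log2 fold changes turned, none of which was called. In FLX versus PBS, Srebf2 was 0.007, 0.006 and 0.007 by limma, Insig1 was 0.051 with all 6 PBS mice, 0.013, 0.011 and 0.013 by limma and -0.335 to 0.204 on leaving out 1 mouse, and Lss was -0.061 with both replicates 5 left out. In FLX versus Ctrl, Idi1 was 0.111, 0.106 and 0.112 by limma, 0.034 with the block, 0.005 with both replicates 5 left out and -0.148 to 0.082 on leaving out 1 mouse. In PBS versus Ctrl, Srebf1 was -0.027 to 0.307 on leaving out 1 mouse, the lowest without PBS replicate 1.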
